A study of Homo sapiens with 4 samples.

Results

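The aminoacyl-tRNA synthetase genes were followed in U2OS, an established human osteosarcoma cell line, by RNA sequencing. Their 35 listed members, 19 for cytosolic and 16 for mitochondrial enzymes, were taken by gene symbol from a count table of 58676 Ensembl identifiers, and every member was matched and passed the low-count filter. Per the labels, 2 libraries came from cells treated with a single-domain antibody (sdAb) against MN1 and 2 from cells treated with a control sdAb. Both groups were grown in the same serum-containing medium. Antibody dose, length of exposure and route of delivery are not stated in the labels, nor is it stated that replicate libraries are separate cultures. The p-values therefore measure library-to-library spread only, part or all of which may be technical.

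Each synthetase joins 1 amino acid to its tRNA, the step that makes the genetic code readable by the ribosome. Cytosolic enzymes charge the tRNAs used on cytosolic ribosomes, and a separate set encoded in the nucleus is imported into mitochondria, where it charges tRNAs for the few proteins made there. Several cytosolic enzymes sit in a multisynthetase complex. Many cytosolic synthetase genes are known targets of ATF4, the transcription factor that is translated when amino acids run short, and WARS1 is known as a gene induced by interferon gamma.

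The libraries held 16075169 and 15970324 counts for the anti-MN1 sdAb and 15740268 and 16816893 for the control sdAb, so a count of 0 allows up to 0.192 and 0.193 CPM with the anti-MN1 sdAb and 0.186 and 0.173 CPM with the control (3 counts, counting error only). MN1 stood at 41.8 and 43.7 CPM with the anti-MN1 sdAb and at 52.6 and 52.5 CPM with the control, and since the antibody binds the protein, this does not check the labels. Of 8 mesenchymal and osteosarcoma markers 7 passed the filter, with 1 higher (CD44, 2.17-fold) and 5 lower. Among the lower ones COL1A1, SPARC and THY1 fell by 1.60, 1.17 and 0.82 on the log2 scale. COL1A2, a type I collagen gene, was not tested, as its level was near 0 (a mean of 0.137 CPM over the 4 libraries). The 9 blood markers summed to 1.15 and 0.581 CPM with the anti-MN1 sdAb and 0.745 and 1.16 CPM with the control, with HBB and CD3E at 0 in all 4 libraries. Summed marker levels with the anti-MN1 sdAb and with the control ran from 33.6 to 34.2 and from 22.3 to 27.1 CPM for 6 epithelial, from 6.20 to 6.65 and from 7.47 to 8.996 CPM for 5 endothelial, and from 34.6 to 37.3 and from 61.8 to 63.0 CPM for 6 neural or embryonic kidney line markers. Among these lists 1 of 4, 0 of 3 and 0 of 5 tested genes were higher and 2, 2 and 3 were lower (edgeR), where 23.2% of all tested genes were higher and 20.9% lower. DESeq2 called 0, 0 and 3 of them lower and limma-voom 1, 1 and 3, since CDH1, CLDN7, VWF and TEK, all at low counts, lost their calls in 1 or both. CLDN4 rose 1.60-fold, and NEFL and SOX2 fell by 1.06 and 1.78 on the log2 scale. No endothelial or neural marker was higher by DESeq2, by limma-voom or at an unadjusted p under 0.05. The part of other cells in the results below was not tested, and in bulk RNA fewer cells of a kind and less RNA per cell cannot be told apart.

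Levels of different genes were compared per kilobase (kb) of exons, as CPM (the usual depth-scaled read count, here on library sizes adjusted by TMM, the trimmed mean of M values) divided by the merged length of all annotated exons, which understates genes with long rare exons. On this scale the median over the cytosolic genes was 50.4 CPM per kb and over the mitochondrial genes 8.74 CPM per kb, as means over the 4 libraries. TARS1, for threonine, was the highest cytosolic gene, with 133 and 133 CPM per kb with the anti-MN1 sdAb and 107 and 107 CPM per kb with the control. CARS1, for cysteine, was the lowest, with 5.14 and 5.46 CPM per kb with the anti-MN1 sdAb and 6.16 and 5.78 CPM per kb with the control. IARS2, for isoleucine, led the mitochondrial genes at 48.1 and 51.9 CPM per kb with the anti-MN1 sdAb and 49.2 and 49.0 CPM per kb with the control, close to its cytosolic counterpart IARS1. Between them the order was GARS1, EPRS1, KARS1, FARSA, RARS1, NARS1, IARS1, AARS1, SARS1, QARS1, VARS1, MARS1, LARS1, FARSB, YARS1, HARS1 and WARS1 among the cytosolic genes, and YARS2, TARS2, RARS2, LARS2, NARS2, HARS2, MARS2, AARS2, EARS2, CARS2, VARS2, WARS2, PARS2 and FARS2 among the mitochondrial genes. Of the 18 neighbours in the cytosolic order 13 had library ranges that overlapped, and of the 15 in the mitochondrial order 9 did. SARS2, for serine, came last at 0.337 and 0.260 CPM per kb with the anti-MN1 sdAb and 0.0768 and 0.538 CPM per kb with the control. Its level is uncertain, since 46.2% of its exonic bases lie in another gene on the same strand and 86.9% of its 50-base windows occur in other genes.

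**Figure D1:**
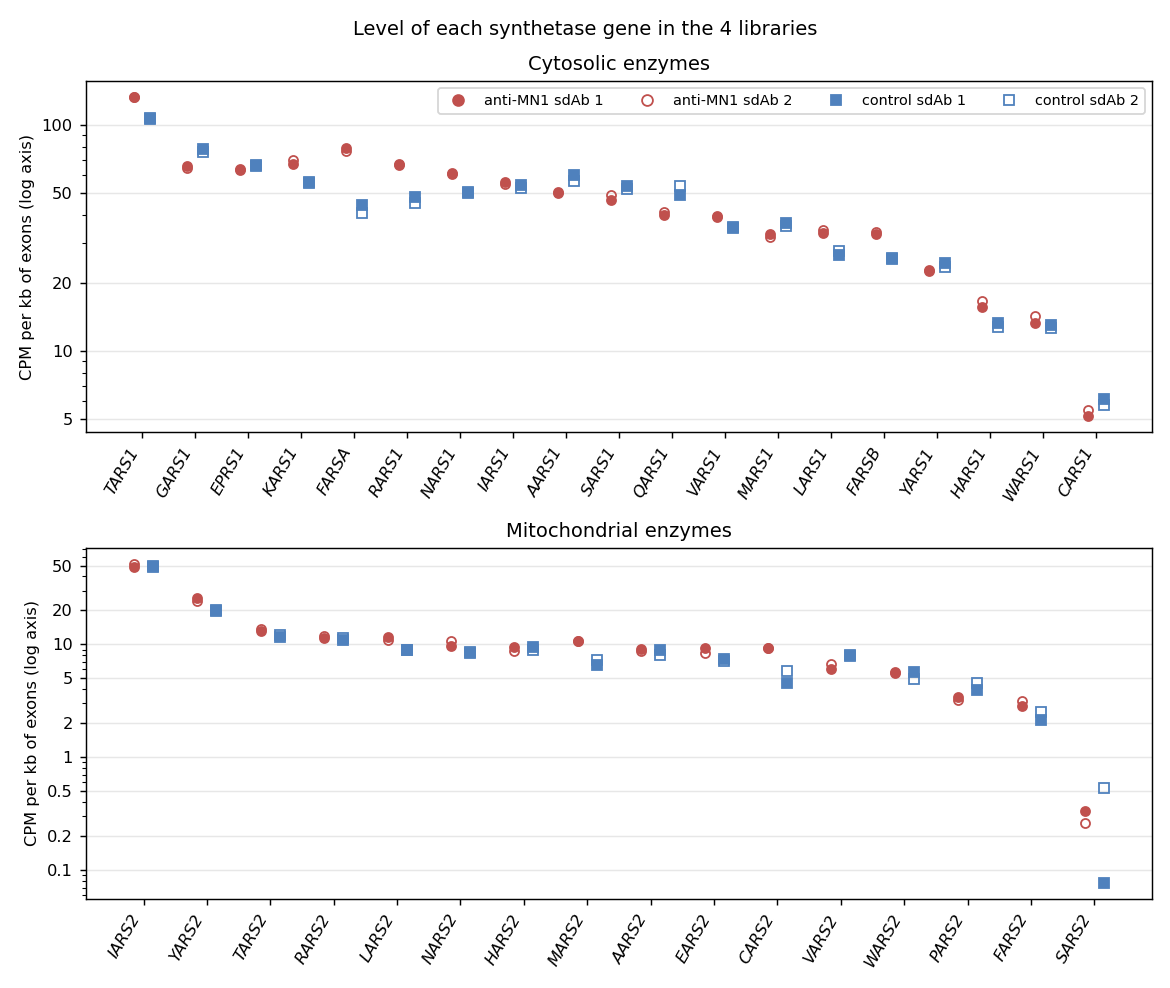
Level of each cytosolic (top) and mitochondrial (bottom) synthetase gene in CPM per kb of exons on a log axis, with 1 point per library, anti-MN1 sdAb as circles left of control sdAb as squares. TARS1 and IARS2 are highest in their panels, CARS1 and SARS2 lowest, and the control libraries of SARS2 lie furthest apart.

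The promoters of 30 members had entries in RefSeq windows of 300 bases (GRCh38.p14, 250 bases before to 50 after a start), while LARS1, VARS1, YARS1, AARS2 and VARS2 had none. The letters TGATGNAAN, a form of the element bound by ATF4 with its partners, were searched on both strands. They were found in 7 of 16 cytosolic genes with a window and in 1 of 14 mitochondrial genes (YARS2), against 3.61% of all 35116 windows and 2.91% of the 12116 genes tested here that had one. The 7 cytosolic stretches of 60 bases are shown, because the genes that hold these letters fall on both sides of the comparison below, with the match in capitals:
AARS1 (chr16:70289661-70289720, minus strand): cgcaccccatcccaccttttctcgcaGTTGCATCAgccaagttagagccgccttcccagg
CARS1 (chr11:3057399-3057458, minus strand): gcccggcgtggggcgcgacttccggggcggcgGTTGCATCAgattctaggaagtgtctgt
GARS1 (chr7:30594818-30594877, plus strand): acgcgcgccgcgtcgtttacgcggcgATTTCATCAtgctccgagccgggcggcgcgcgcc
MARS1 (chr12:57488033-57488092, plus strand): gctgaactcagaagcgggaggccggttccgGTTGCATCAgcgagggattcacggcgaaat
NARS1 (chr18:57621812-57621871, minus strand): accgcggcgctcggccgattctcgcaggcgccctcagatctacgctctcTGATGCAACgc
TARS1 (chr5:33440930-33440989, plus strand): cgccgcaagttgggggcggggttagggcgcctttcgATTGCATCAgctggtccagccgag
IARS1 (chr9:92293678-92293737, minus strand): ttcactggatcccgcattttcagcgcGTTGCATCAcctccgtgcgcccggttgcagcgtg
The match read GTTGCATCA in AARS1, CARS1, MARS1 and IARS1, and in NARS1 it was the same letters on the other strand, TGATGCAAC. In GARS1 it read ATTTCATCA and in TARS1 ATTGCATCA. It began 188 bases before the start in AARS1, 34 in GARS1, 14 in IARS1, 5 in MARS1 and 3 in CARS1, and lay just after the start in TARS1 and NARS1.

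The E-box CACGTG, the letters bound by MYC and other helix-loop-helix factors, was found in 3 of 14 mitochondrial genes with a window and in 1 of 16 cytosolic genes (IARS1), against 7.26% of all windows and 12.1% of tested genes. The mitochondrial stretches are shown because they include both genes of that set with the largest rise, with the match in capitals:
CARS2 (chr13:110706491-110706550, minus strand): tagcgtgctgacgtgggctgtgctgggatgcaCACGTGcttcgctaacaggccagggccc
MARS2 (chr2:197705331-197705390, plus strand): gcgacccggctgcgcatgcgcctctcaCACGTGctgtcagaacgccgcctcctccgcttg
EARS2 (chr16:23557333-23557392, minus strand): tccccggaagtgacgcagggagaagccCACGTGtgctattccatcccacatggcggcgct
For WARS1 the searched letters were those of the interferon gamma activated site (TTCNNNGAA, 7.66% of all windows) and of the interferon stimulated element core (3.57% of all windows). Both were found in 1 of its RefSeq windows, at 142 and 55 bases before that start:
WARS1 (chr14:100375456-100375515, minus strand): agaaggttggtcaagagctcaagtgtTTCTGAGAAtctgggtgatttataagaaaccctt
WARS1 (chr14:100375368-100375427, minus strand): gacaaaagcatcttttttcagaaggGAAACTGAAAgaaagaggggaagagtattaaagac
TTCNNNGAA was also found in TARS1, CARS1, PARS2 and WARS2, and the stimulated element core in EARS2. In CARS1 TTCNNNGAA lay 9 bases into the transcript, next to the ATF4 letters. A match describes letters only and is no evidence of binding.

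**Figure D2:**
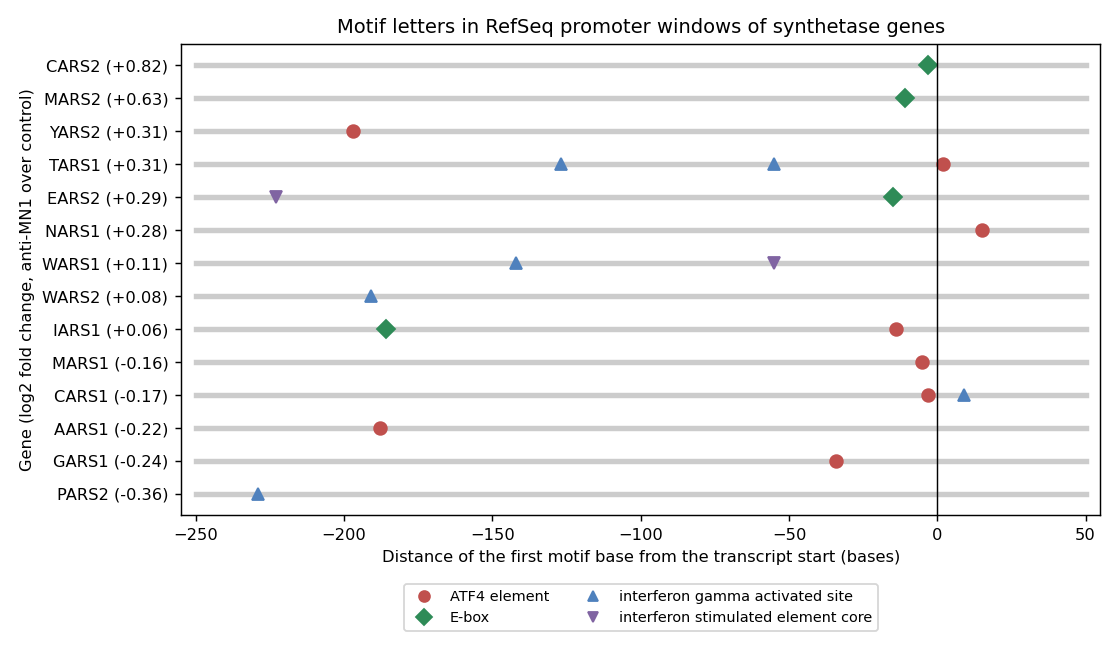
Position of each motif match along the RefSeq promoter windows (grey bars, 250 bases before to 50 after a start) of the synthetase genes with a match, ordered by log2 fold change, anti-MN1 over control. The ATF4 letters (circles) occur in AARS1, CARS1, GARS1 and MARS1 below 0 and in IARS1, NARS1, TARS1 and YARS2 above it, and 3 of the 4 E-box matches (diamonds) lie within 15 bases of the start of CARS2, MARS2 and EARS2.

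The comparison asks which synthetase transcripts differ between anti-MN1 sdAb and control sdAb cells. Among the 19 cytosolic genes 9 rose and 6 fell, and all but 1 of the changes were below 1.5-fold. Among the 16 mitochondrial genes 8 rose and 1 fell. The background was high: 23.2% of the 17524 tested genes were higher, 20.9% lower and 44.1% either (edgeR quasi-likelihood test, Benjamini-Hochberg adjusted p under 0.05). Among tested genes averaging 50 CPM or more, a level that every cytosolic gene exceeded and that was chosen after the data were seen, 45.5% were higher, 18.2% lower and 63.7% either. The share of cytosolic genes that rose (47.4%) was thus near the background at their level, and the share that fell was 31.6%. Among genes of at least 10 CPM, also set afterwards, 35.3% were higher, 20.3% lower and 55.7% either. Of the mitochondrial genes 50% were higher and 6.25% lower. No test of these shares was made, as the members are not replicates. The median log2 fold change was 0.11 over the cytosolic and 0.13 over the mitochondrial genes, against 0.00 over all tested genes and 0.09 over those of at least 50 CPM. With upper-quartile scaling, where the split over all genes moved to 2988 higher and 4837 lower from 4068 and 3658 under TMM, the counts were 8 higher and 8 lower for cytosolic and 5 higher and 2 lower for mitochondrial genes.

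Summed over its 19 genes, the cytosolic set stood at 4624 and 4662 CPM with the anti-MN1 sdAb, against 4335 and 4285 CPM with the control. The mitochondrial set stood at 799 and 812 CPM with the anti-MN1 sdAb, against 704 and 716 CPM with the control. The libraries of the groups did not overlap in either sum, and the ratio of means was 1.08 for the cytosolic and 1.13 for the mitochondrial set. These sums were taken under TMM scaling only. TARS1, the most abundant member, stood at means of 759 CPM with the anti-MN1 sdAb and 612 CPM with the control. For all 19 cytosolic genes the groups did not overlap, with both anti-MN1 libraries above both controls in 11 and below them in 8. Of all tested genes, low-count ones included, 35.3% and 35.4% were so placed. No such share was taken among genes averaging 50 CPM or more, so the part of expression level in this contrast was not tested. Of the mitochondrial genes 9 lay above, 2 below and 5 overlapped.

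**Figure D3:**
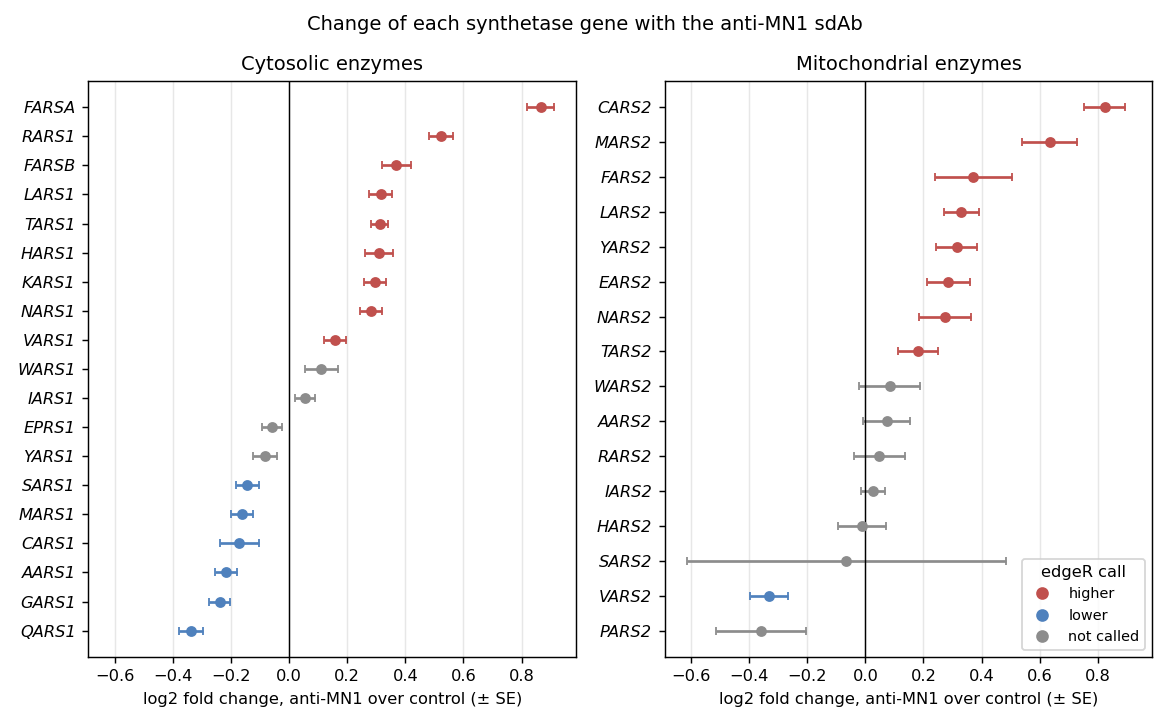
Log2 fold change of each synthetase gene, anti-MN1 over control, with its standard error, for cytosolic (left) and mitochondrial (right) enzymes, coloured by the edgeR call. FARSA at 0.87 and CARS2 at 0.82 lie furthest to the right, QARS1 at -0.34 and PARS2 at -0.36 furthest to the left, and PARS2 was not called.

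The largest rise was in FARSA (ENSG00000179115, chr19:12922479-12934037, minus strand), which encodes the catalytic alpha subunit of phenylalanyl-tRNA synthetase. It had 192 and 186 CPM with the anti-MN1 sdAb, against 108 and 99.7 CPM with the control, a log2 fold change of 0.87 ± 0.05 (SE; edgeR adjusted p = 5.99e-16). FARSB (ENSG00000116120, chr2:222570536-222656337, minus strand) encodes the beta subunit of the same enzyme, and it had 111 and 113 CPM with the anti-MN1 sdAb, against 86.4 and 87.3 CPM with the control. Both anti-MN1 libraries lay above both controls for each subunit, and the rise of FARSB was 1.29-fold (edgeR adjusted p = 3.82e-07) beside 1.82-fold for FARSA. The ratio of FARSA to FARSB, per kb, was therefore 2.39 and 2.27 with the anti-MN1 sdAb and 1.73 and 1.58 with the control. With 2 libraries per group an exact 2-sided permutation test cannot give a p below 0.333, so this and the other ratios are given as values only.

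RARS1, for arginine (ENSG00000113643, chr5:168486445-168519299, plus strand), had 229 and 228 CPM with the anti-MN1 sdAb, against 164 and 155 CPM with the control, a rise of 1.44-fold (edgeR adjusted p = 4.94e-12). It belongs to the multisynthetase complex, as do LARS1 and KARS1, which also rose. LARS1, for leucine and known as a leucine sensor, had 270 and 279 CPM with the anti-MN1 sdAb, against 216 and 226 CPM with the control. KARS1, whose enzyme charges lysine tRNAs in both compartments, had 272 and 284 CPM with the anti-MN1 sdAb, against 227 and 226 CPM with the control. These groups did not overlap either, and the rises were 1.24-fold and 1.23-fold.

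TARS1, the most abundant member, had 758 and 761 CPM with the anti-MN1 sdAb, against 610 and 614 CPM with the control, which was 1.24-fold. HARS1, for histidine, had 123 and 131 CPM with the anti-MN1 sdAb, against 104 and 101 CPM with the control, also 1.24-fold. Both genes thus rose by a similar factor at very different levels. NARS1, for asparagine, rose 1.21-fold (edgeR adjusted p = 3.27e-07) to 249 ± 3.02 CPM, against 205 ± 1.10 CPM in the control (SD, n = 2 per group). VARS1, for valine, had the smallest called rise, 1.12-fold (edgeR adjusted p = 0.000885), and its call was lost with upper-quartile scaling (adjusted p = 0.123) and with library totals alone (adjusted p = 0.0857).

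QARS1, for glutamine (ENSG00000172053, chr3:49095932-49105135, minus strand), had the largest fall among the cytosolic genes. It had 188 and 194 CPM with the anti-MN1 sdAb, against 231 and 252 CPM with the control, a log2 fold change of -0.34 ± 0.04 (SE; edgeR adjusted p = 7.44e-08). GARS1, for glycine in both compartments (ENSG00000106105, chr7:30594681-30634033, plus strand), had 275 and 268 CPM with the anti-MN1 sdAb, against 324 and 316 CPM with the control. AARS1, for alanine (ENSG00000090861, chr16:70252295-70289543, minus strand), had 225 and 226 CPM with the anti-MN1 sdAb, against 271 and 253 CPM with the control. In each of these genes both anti-MN1 libraries were below both controls, and GARS1 and AARS1 fell by 0.24 and 0.22 on the log2 scale (edgeR adjusted p = 2.09e-06 and 3.24e-05).

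MARS1, for methionine, fell by 0.16 on the log2 scale (edgeR adjusted p = 0.000859), and 12.4% of its exonic bases are overlapped on the other strand, by DDIT3 among others. SARS1, for serine, fell by 0.14 and CARS1 by 0.17 on the log2 scale (edgeR adjusted p = 0.00466 and 0.0369). Both of the last calls were lost without anti-MN1 replicate 1 (adjusted p = 0.146 and 0.274) and without control replicate 1 (adjusted p = 0.0681 and 0.275), which left 4 lower cytosolic genes each time, and that of CARS1 also with DESeq2 (adjusted p = 0.168) and with no low-count filter (adjusted p = 0.0964). Of the 6 cytosolic genes that fell, all with a promoter window, 4 held the ATF4 letters shown above, CARS1 among them. Among the others with a window, the letters were held by 2 of 7 that rose and 1 of 3 that were not called. LARS1 and VARS1, which rose, had no window, and the difference between these shares was not tested.

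The cytosolic genes that were not called were IARS1, EPRS1, YARS1 and WARS1. IARS1, for isoleucine, was nearest to no change, with 415 and 407 CPM with the anti-MN1 sdAb against 401 and 391 CPM with the control, and a log2 fold change of 0.06 ± 0.03 (SE). EPRS1, which joins glutamate and proline enzymes in 1 chain, was at -0.06 and YARS1, for tyrosine, at -0.08, and both were called lower with upper-quartile scaling (adjusted p = 0.00114 and 0.00125), with library totals alone (adjusted p = 0.000752 and 0.000875) and at a minimum count of 50 (adjusted p = 0.0183 and 0.0125). WARS1, for tryptophan, had 84.7 and 91.1 CPM with the anti-MN1 sdAb, against 82.8 and 80.1 CPM with the control, a log2 fold change of 0.11 ± 0.06 (SE; edgeR adjusted p = 0.107), and it passed without anti-MN1 replicate 1 (adjusted p = 0.0499). In these libraries the list of genes that respond to interferon gamma had 8 of 15 tested members higher and 2 lower, or 7 and 0 by DESeq2 and 8 and 2 by limma-voom, where 23.2% of all tested genes were higher and 20.9% lower. No test of that list was made. GBP1, a guanylate-binding protein gene of that list, had 41.7 and 43.7 CPM with the anti-MN1 sdAb, against 16.6 and 17.3 CPM with the control. B2M, PSMB8 and GBP3, also in that list, rose 1.61-fold, 1.42-fold and 1.58-fold. The 2 genes that edgeR called lower, GBP2 and PSMB9, each fell by 0.44 on the log2 scale (edgeR adjusted p = 0.0321 and 0.0208).

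By complex and catalytic class the cytosolic counts were as follows, to be read against the 45.5% higher and 18.2% lower among tested genes averaging 50 CPM or more. No difference between these groups was tested. Of 7 multisynthetase complex enzymes 3 rose and 2 fell (MARS1 and QARS1), with a median log2 fold change of 0.06, and of 12 other cytosolic genes 6 rose and 4 fell, with a median of 0.14. The complex is held together by the scaffold proteins of AIMP1, AIMP2 and EEF1E1. AIMP1 had 64.9 and 68.5 CPM with the anti-MN1 sdAb, against 48.1 and 48.6 CPM with the control, and rose 1.38-fold (edgeR adjusted p = 7.24e-07). AIMP2 and EEF1E1 were at log2 fold changes of 0.14 and 0.46 and were not called, and 41.2% and 34.0% of their windows occur in other genes. The 2 structural classes of synthetases differ in the fold of their catalytic domain. Of 9 cytosolic class II genes 6 rose and 3 fell, and of 9 class I genes 3 rose and 3 fell, with EPRS1 left out because it holds a domain of each class. In mitochondria 5 of 9 class I genes rose and 1 fell, and 3 of 7 class II genes rose. Among tested genes averaging 10 CPM or more 35.3% were higher and 20.3% lower.

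Among the mitochondrial genes CARS2 rose most (ENSG00000134905, chr13:110641412-110713603, minus strand). It encodes the mitochondrial cysteinyl-tRNA synthetase, an enzyme also known to make cysteine persulfides. It had 96.3 and 96.9 CPM with the anti-MN1 sdAb, against 47.8 and 61.0 CPM with the control, a log2 fold change of 0.82 ± 0.07 (SE; edgeR adjusted p = 4.94e-11). MARS2, for methionine (ENSG00000247626, chr2:197705369-197708387, plus strand), had 32.3 and 32.2 CPM with the anti-MN1 sdAb, against 19.7 and 21.8 CPM with the control, a rise of 1.55-fold (edgeR adjusted p = 1.74e-06). In both genes the anti-MN1 libraries stood well above the controls, whose values for CARS2 were the more spread. With FARSA these were the 3 members with a change of at least 1.5-fold, all of them rises, where 7.07% of all tested genes rose and 16% fell that far.

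LARS2, for leucine, had 78.9 and 74.4 CPM with the anti-MN1 sdAb, against 60.9 and 61.0 CPM with the control (1.26-fold). YARS2, for tyrosine, had 54.9 and 52.5 CPM with the anti-MN1 sdAb, against 43.7 and 42.7 CPM with the control (1.24-fold). EARS2, whose enzyme charges both glutamate and glutamine tRNAs with glutamate in mitochondria, had 52.8 and 48.5 CPM with the anti-MN1 sdAb, against 42.5 and 40.7 CPM with the control (1.22-fold). The groups did not overlap in any of these genes, and their edgeR adjusted p were 3.74e-05, 0.000481 and 0.00197.

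The other rises in this set were less firm. FARS2, for phenylalanine, had 13.9 and 15.3 CPM with the anti-MN1 sdAb, against 10.3 and 12.2 CPM with the control (1.29-fold, edgeR adjusted p = 0.0219). NARS2, for asparagine, had 30.6 and 33.8 CPM with the anti-MN1 sdAb, against 26.3 and 26.9 CPM with the control (1.21-fold, edgeR adjusted p = 0.0130). TARS2, for threonine, rose 1.13-fold (edgeR adjusted p = 0.0326). These 3 calls were lost with upper-quartile scaling, with library totals alone, with DESeq2, without anti-MN1 replicate 2 and without control replicate 1, and 5 of the 16 mitochondrial genes were then higher in each case. That of TARS2 was also lost at a minimum count of 50 (adjusted p = 0.0707) and without control replicate 2 (adjusted p = 0.0510). The adjusted p by DESeq2 were 0.143 for FARS2, 0.0955 for NARS2 and 0.164 for TARS2.

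VARS2, for valine (ENSG00000137411, chr6:30908242-30926459, plus strand), was the mitochondrial gene that fell, to 51.0 and 56.3 CPM with the anti-MN1 sdAb, against 67.2 and 68.0 CPM with the control. Its log2 fold change was -0.33 ± 0.07 (SE; edgeR adjusted p = 9.97e-05). Its counts are uncertain, because 22.0% of its exonic bases overlap GTF2H4 on the same strand and 30.1% of its windows occur in other genes. PARS2, for proline, had 8.06 and 7.56 CPM with the anti-MN1 sdAb, against 9.31 and 10.7 CPM with the control. At -0.36 ± 0.16 (SE) on the log2 scale it missed the threshold (edgeR adjusted p = 0.0606), although both anti-MN1 libraries were below both controls, and it passed with upper-quartile scaling (adjusted p = 0.0199), with library totals alone (adjusted p = 0.0202) and at a minimum count of 50 (adjusted p = 0.0359).

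HARS2, for histidine, was nearest to no change, with 35.4 and 32.7 CPM with the anti-MN1 sdAb against 35.5 and 33.2 CPM with the control. HARS1 and HARS2 lie head to head on chromosome 5, and the annotated genes overlap at their 5′ ends on opposite strands. In all, 8.38% of the exonic bases of HARS1 are overlapped on the other strand, by HARS2 and WDR55, and 11.7% of those of HARS2, by HARS1. HARS1 was called and HARS2 was not, and the difference between them was not tested. IARS2 had 200.3 and 216 CPM with the anti-MN1 sdAb, against 205 and 204 CPM with the control. AARS2, RARS2 and WARS2, for alanine, arginine and tryptophan, were at log2 fold changes of 0.07, 0.05 and 0.08 and SARS2 at -0.07 ± 0.55 (SE). None of these 6 genes passed the test, in edgeR as reported or in any alternative run.

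In 13 amino acids the cytosolic and mitochondrial enzymes come from 1 gene each, and these were set side by side. Both genes rose for leucine, asparagine and threonine. The cytosolic gene fell and the mitochondrial gene rose for cysteine and methionine, and the reverse was seen for valine. Of these calls, those of NARS2, TARS2, CARS1 and VARS1 were lost in at least 1 alternative, and the counts of VARS2 are uncertain. The ratio of CARS1 to CARS2, per kb, was 0.559 and 0.589 with the anti-MN1 sdAb, against 1.35 and 0.991 with the control. The ratio of MARS1 to MARS2 was 3.09 and 2.99 with the anti-MN1 sdAb, against 5.68 and 4.93 with the control. The ratio of VARS1 to VARS2 was 6.57 and 5.86 with the anti-MN1 sdAb, against 4.41 and 4.41 with the control. In these 3 ratios the groups were apart, as they were for 8 of the 13, with both anti-MN1 libraries above the controls in 4 and below them in 4. Of all single tested genes 35.3% lay above and 35.4% below in this way, and no such share was taken over other gene pairs. In the leucine, asparagine, isoleucine, tryptophan and serine ratios the libraries overlapped. The cytosolic gene was the higher of each pairing per kb in all 4 libraries for 11 of 13 amino acids, the exceptions being cysteine and tyrosine. The tyrosine exception depends on the merged exon length, 8212 bases for YARS1 and 2152 for YARS2. Before division by length, YARS1 had a mean of 192 CPM over the 4 libraries and YARS2 48.5 CPM.

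**Figure D4:**
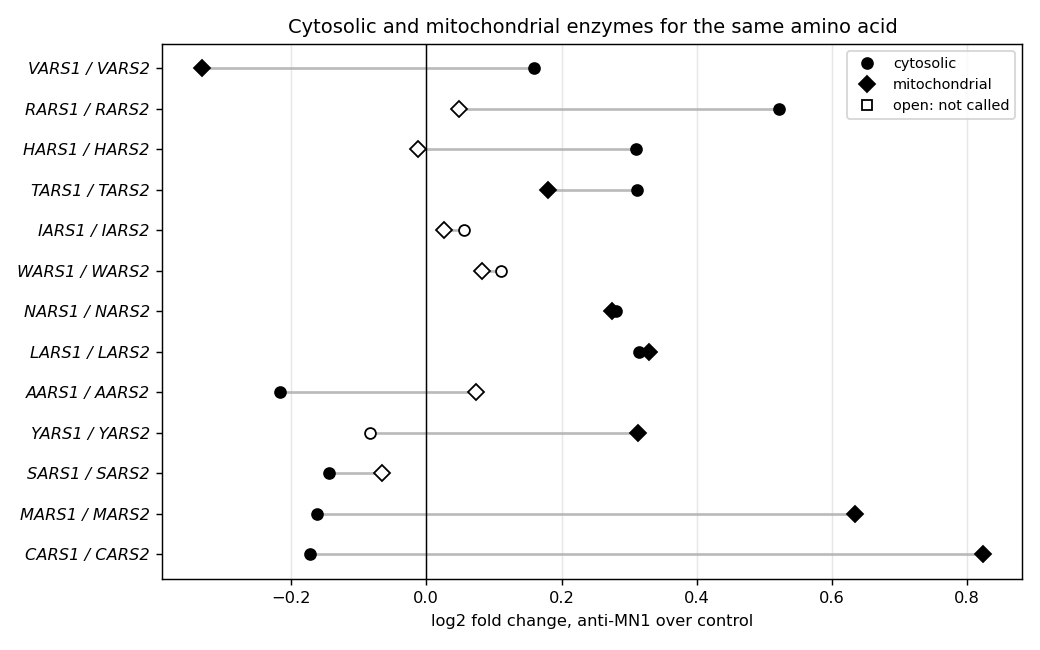
Log2 fold change, anti-MN1 over control, of the cytosolic (circle) and mitochondrial (diamond) gene for each of the 13 amino acids with 1 gene per compartment, open where not called. Cysteine and methionine show the widest gaps, with the mitochondrial gene at 0.82 and 0.63 and the cytosolic gene at -0.17 and -0.16, while leucine and asparagine symbols nearly coincide.

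Phenylalanine was the case where both compartments rose with 3 genes, since FARSA, FARSB and FARS2 were all higher. The bifunctional EPRS1 was not called, while of its mitochondrial counterparts EARS2 rose and PARS2 missed the threshold. Mitochondria lack a glutaminyl-tRNA synthetase and convert mischarged glutamate on its tRNA through an amidotransferase made by QRSL1, GATB and GATC. QRSL1 had 37.5 and 38.8 CPM with the anti-MN1 sdAb, against 23.1 and 25.6 CPM with the control, and rose 1.57-fold (edgeR adjusted p = 4.02e-07). GATB had 29.1 and 24.4 CPM with the anti-MN1 sdAb, against 20.2 and 20.2 CPM with the control, and its rise lost its call without anti-MN1 replicate 1 (adjusted p = 0.0666). GATC, with 39.1% of its exonic bases overlapped on the other strand, was at 0.16 on the log2 scale and was not called. In the list of 6 genes for this step, formylation and release of peptidyl-tRNA, 3 of 5 tested genes rose and 0 fell by edgeR, with 0 lower at an unadjusted p under 0.05, by DESeq2 and by limma-voom. The peptidyl-tRNA hydrolase gene PTRH2, also in that list, rose 1.37-fold.

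Other steps of tRNA supply were described by lists chosen beside the members, to be read against the 23.2% of all tested genes that were higher and the 20.9% that were lower, or the 45.5% and 18.2% of those averaging 50 CPM or more. Of 30 tRNA maturation genes 16 rose (53.3%) and 0 fell by edgeR, with 1 lower at an unadjusted p under 0.05, 0 by DESeq2 and limma-voom, and 14 higher and 1 lower with upper-quartile scaling, and their median log2 fold change was 0.25. NSUN2, a tRNA cytosine methyltransferase gene, had 547 and 557 CPM with the anti-MN1 sdAb, against 336 and 345 CPM with the control, and rose 1.62-fold (edgeR adjusted p = 3.67e-17). WDR4, the partner of the tRNA guanine methyltransferase METTL1, rose 1.44-fold, TRMT10C, a subunit of mitochondrial RNase P, 1.39-fold, and ELAC2, which trims tRNA ends, 1.31-fold. Of 8 tRNA export and delivery genes 3 of 7 tested rose and 2 fell. EEF1G, the gene left out, had 0 counts in all 4 libraries, and 99.9% of its exonic bases lie in another gene on the same strand. The cause of its missing counts was not tested. XPOT, the tRNA exporter, rose 1.15-fold and TUFM, the mitochondrial elongation factor that carries charged tRNA to the ribosome, 1.14-fold. EEF1A2, an isoform of the cytosolic carrier, fell by 0.75 on the log2 scale to 174 and 180 CPM with the anti-MN1 sdAb, against 300 and 294 CPM with the control. EEF1D rose 1.15-fold, with 70.9% of its windows found in other genes. Of 10 mitochondrial translation factors 3 rose, namely GFM1, MRRF and MTIF2 at 1.33-fold, 1.33-fold and 1.22-fold, and 0 fell by edgeR, with 1 lower at an unadjusted p under 0.05 and with upper-quartile scaling and 0 by DESeq2 and limma-voom. Of 9 synthetase relatives, editing and selenocysteine genes 2 rose, DTD2 (1.44-fold) and SEPSECS (1.31-fold), and 0 fell, with 0 lower also at an unadjusted p under 0.05, by DESeq2 and by limma-voom, and 1 lower with upper-quartile scaling. The call of SEPSECS was lost with DESeq2 (adjusted p = 0.0718) and without control replicate 1 (adjusted p = 0.0842).

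Many of the cytosolic genes share their known regulator with amino acid enzymes and transporters, and that list was given beside them. Of 21 such ATF4 targets 6 rose and 12 fell, or 5 and 7 by DESeq2 and 3 and 13 with upper-quartile scaling. The background for this list and the next was 23.2% of all tested genes higher and 20.9% lower, and neither list was tested. ASNS was not called, at 19 and 29 counts with the anti-MN1 sdAb and 43 and 46 with the control, and 82.0% of its windows occur in other genes. PHGDH, the entry enzyme of serine synthesis, fell to 167 and 166 CPM with the anti-MN1 sdAb, against 248 and 243 CPM with the control, and the transporter genes SLC7A11, SLC3A2 and SLC7A5 rose 1.52-fold, 1.48-fold and 1.29-fold. Of 14 eIF2 alpha kinases and pathway regulators 6 rose and 2 fell, with PPP1R15A, CEBPB and PPP1R15B at 1.87-fold, 1.83-fold and 1.25-fold while NUPR1 fell by 0.92 on the log2 scale. ATF4 itself, whose activity is set largely by translation, was at 0.00 ± 0.03 (SE) on the log2 scale and was named after its value was seen.

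The members were also set beside their chromosome neighbours. For each member the median log2 fold change of the other tested genes within 5 Mb on either side was taken, over at least 30 genes, and it ranged from -0.31 to 0.18. For FARSA the median was 0.05, for CARS2 -0.02 and for MARS2 0.10. Of the called members MARS1 was the closest to its region, at -0.16 beside -0.12. HARS1 and LARS1 rose in regions of chromosome 5 whose medians were -0.31 and -0.22.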

How the data were processed

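The deposited table holds the authors' read counts for each Ensembl gene, whole numbers that had not been normalized, judging by the values. Bowtie2, HTSeq and hg38 (GRCh38) are named per the submitters' processing notes. The labels give no tool versions or roles, no gene annotation and no strand option, so reads of overlapping genes on either strand may be lost or misassigned. Columns were matched to libraries by the group's first letter and the replicate number in the titles. Identifiers were named from a symbol table (58207 of 58676), and coordinates, exonic lengths and overlaps came from GENCODE release 29 on GRCh38. The share of 50-base windows of each gene's longest transcript found in other genes was counted.

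Counts were tested on the whole table with edgeR 4.0.16 under R 4.3.3: filterByExpr at a minimum count of 10, which left 17524 genes, TMM scaling, no covariate, the 2-sided quasi-likelihood test and Benjamini-Hochberg adjustment over all tested genes at 0.05. Standard errors are the log2 fold change over the root of the test statistic. With 2 libraries per group the p-values rest largely on a spread shared over genes (median of 28.1 prior degrees of freedom). Libraries of a group differed beyond counting noise (chi-square per degree of freedom of 1.79 with the anti-MN1 sdAb and 1.93 with the control). Alternatives were DESeq2 1.42.0, limma-voom (limma 3.58.1), other scaling factors, other filters, a robust fit, removal of the 20 most abundant genes, a replicate block and leaving out each library. Members, lists, motifs and named-gene rule were chosen with earlier results of these data known. Values by library were to be given for up to 8 called members per compartment with the largest change, for the highest, lowest and least changed ones, and for up to 4 genes per list with the smallest p. Most of those list genes are given by their change only and some (uncalled ones and low-count markers) by no value. Values of GARS1, AARS1, WARS1, ATF4, ASNS, EEF1G, GBP2 and PSMB9 were added after they were seen.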

Additional observations from a re-analysis of the deposited data

How the results depend on the processing

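Of the 24 called members, 18 kept their call and direction in all 14 alternatives, and in no alternative did a member called there or in the reported fit change sign. The calls of CARS1, SARS1, VARS1, FARS2, NARS2 and TARS2 were lost in at least 1 alternative, and EPRS1, YARS1, PARS2 and WARS1 were gained in at least 1. Over the members, 454 of 489 values kept their side of the threshold, 25 lost it and 10 gained it. Over the named genes of the other lists, 665 of 693 did, 24 lost it and 4 gained it. With upper-quartile factors and with library totals alone, the median log2 fold change of the cytosolic genes was 0.0257 and 0.0313, and 5 mitochondrial genes were higher and 2 lower in both. These scalings shifted the log2 fold change of all genes by medians of -0.09 and -0.08, and 38.2% and 39.2% of called genes were higher, against 52.7% under TMM. At a minimum count of 50 the cytosolic median was 0.0770, with 2 mitochondrial genes lower. DESeq2 called 2338 genes lower over the table and 5 mitochondrial genes higher. With limma-voom the mitochondrial median was 0.23. Leaving out each library in turn gave cytosolic medians from 0.0780 to 0.155, mitochondrial medians from 0.136 to 0.233, and 5 to 8 higher mitochondrial genes. A lone library left in a group was assumed to vary like the other group. The causes were not tested.

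Same-numbered libraries did not deviate together (correlation of -0.00308 across genes). This value covers all tested genes, low-count ones included, so it cannot settle whether the numbers pair the samples. With the replicate block 4145 genes were higher and 3742 lower, and the counts of members were 9 and 6 for cytosolic and 8 and 1 for mitochondrial genes. At the lowest levels depth limits what can be said, as for SARS2 with 4 counts in 1 control library.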
